A study of Drosophila melanogaster with 4 samples.

Results

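The Antennapedia complex of Drosophila melanogaster was examined as the stretch of 3R from 6655000 to 7005000 (dm6) that holds 7 homeobox genes, lab, pb, bcd, Dfd, Scr, ftz and Antp. All Dam-Pr-set7 summits in this stretch were taken, which gave 16 of the 2876 summits of replicate 1 and 28 of the 4281 summits of replicate 2. The series held 4 samples of neural stem cells from larvae 24 h after hatching, 2 in which grh-Gal4 drove UAS-Dam and 2 in which it drove UAS-Dam-Pr-set7 from the plasmid pUASTattB-LT3-NDam-Pr-set7. Eggs were collected over 6 h and raised at 25 °C, and hatched larvae were kept at 29 °C. In targeted DamID the bacterial methylase Dam marks adenines in GATC motifs near the places its fusion partner visits, in the cells where Gal4 is active. Summits were used from the 2 Dam-Pr-set7 samples, and any batch difference between these samples cannot be told apart from the replicate. The Dam-alone samples were not analysed here, and no height is set against the Dam background. The fusion protein was expressed from a transgene under grh-Gal4, which the study describes as specific to neural stem cells. Summit lists carry no expression values, so that cell type could not be checked against markers. The labels do not say whether each sample had its own collection of animals.

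Pr-set7 is the enzyme that places a single methyl group on histone H4, a mark tied to the cell cycle and to chromatin compaction. Hox genes encode homeodomain transcription factors that give body segments their identity, and their order along the chromosome follows the order of the segments they pattern. In the fly the Antennapedia complex covers the head and the anterior thorax, and the Bithorax complex covers the posterior thorax and the abdomen. In the central nervous system, Hox genes set how long neural stem cells of a given segment divide and when they stop or die. Polycomb and trithorax proteins maintain the silent and active states of both complexes. The genes bcd and ftz lie inside the Antennapedia complex and encode homeodomain proteins, but bcd is a maternal determinant of the anterior pole and ftz is a pair-rule segmentation gene.

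Of the 7 genes, Antp alone had a Dam-Pr-set7 summit in each replicate within 1000 bp of either end of its annotated span, 1 of 7 members. Among all 13922 protein-coding genes, 14.3% met that rule, so the share of members lay at the background. By replicate the counts were 2 of 7 (Scr and Antp; 18.3% of all coding genes) and 1 of 7 (22.5%). Antp was likewise the 1 member reached within 500 bp (8.83% of all coding genes), when each summit counted for the nearest gene end only (8.05%) and with summits above the median height (8.65%). At the other extreme, bcd, Dfd and ftz had no summit inside them or within 1000 bp in either replicate, 3 of 7 members against 67.6% of all coding genes and 40.1% of those of at least 10000 bp. Antp was also the only member with a summit inside its span in both replicates (1 of 7, against 9.85% of all coding genes and 30.6% of the longer ones, a length that 5 of the 7 members reach). Positions were called recurring when the replicates had summits within 500 bp of each other, and they lay in Antp, just beyond it and in regions between the other genes. There were 11 recurring positions, 4 inside Antp, 2 beyond its higher-coordinate end and 5 between bcd and ftz but outside every member, while 0 lay in the spans of the other 6 members. Read depth is unknown, and where no summit was called the protein need not have been absent. A height sums over all cells, so the share of cells marked and the marking per cell cannot be told apart.

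**Figure D1:**
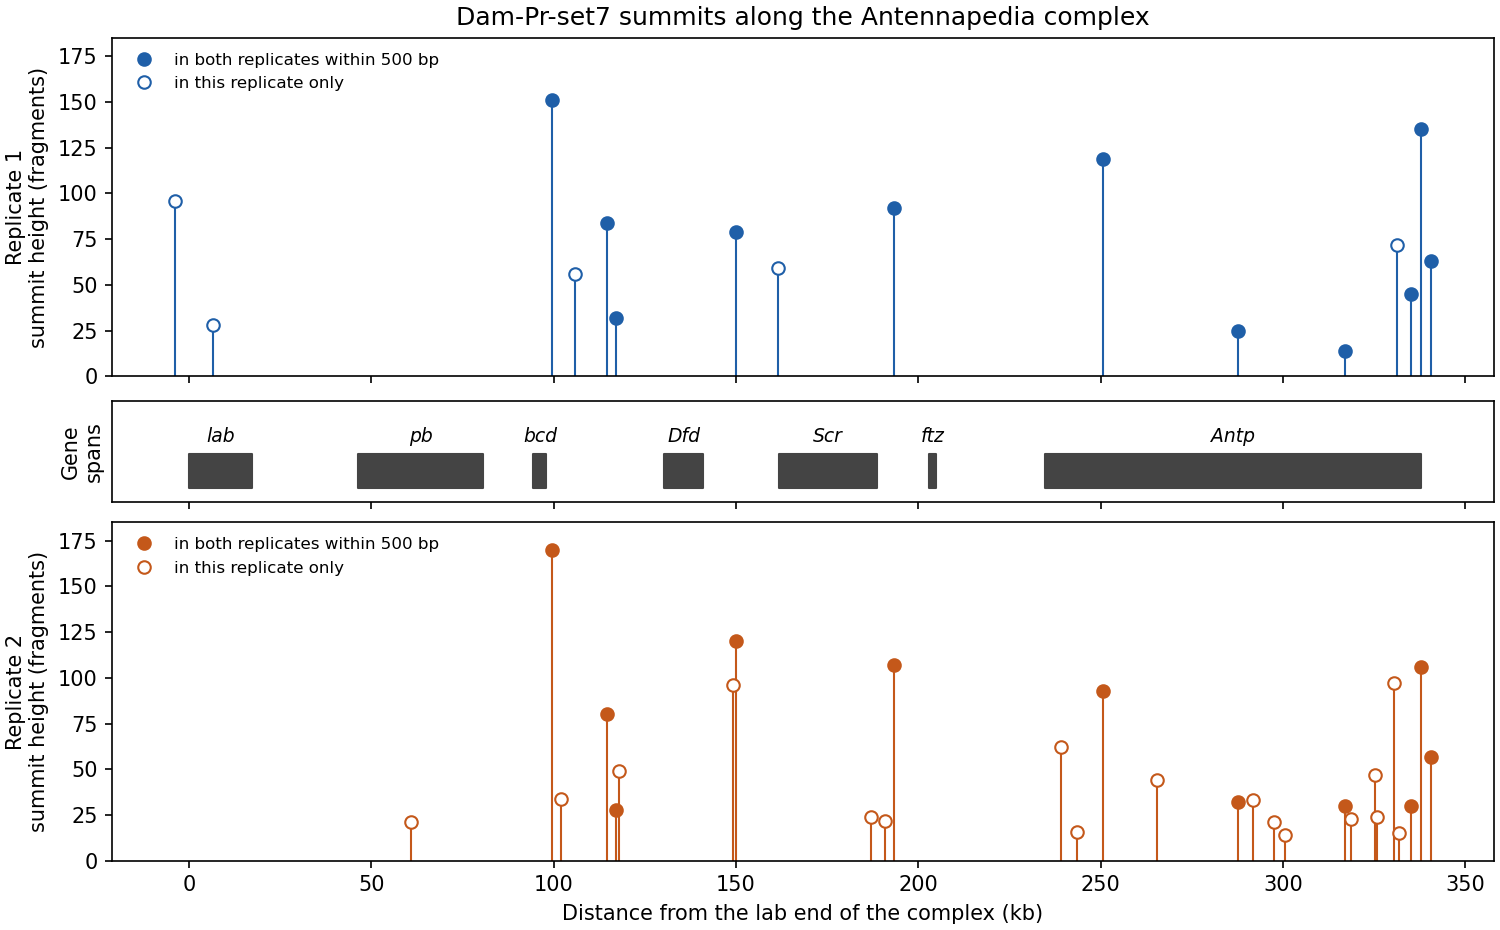
Summits along the complex, with distance in kb from the lab end on the horizontal axis and summit height in fragments on the vertical axis, for replicate 1 (top) and replicate 2 (bottom), with the spans of the 7 genes between them. Filled points recur in both replicates within 500 bp and open points do not. The filled points lie between bcd and ftz, in Antp and beyond Antp, with none in or near lab and pb.

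At the lab end, where the most anterior Hox functions lie, no summit recurred. lab (Dmel_CG1264; 6661427 to 6678590), which patterns the posterior head and a part of the brain, held 1 summit in replicate 1, at 6668071 with 28 fragments, and 0 in replicate 2. That summit was low, at a height percentile of 29.4, the percentage of summits in the same list that are lower, with ties counted at their middle. pb (Dmel_CG31481; 6707800 to 6742063), which specifies the adult mouthparts, held 0 summits in replicate 1 and 1 in replicate 2, at 6722391 with 21 fragments (percentile 20.6). Neither summit had a counterpart within 30 kb in the other replicate. A higher summit of replicate 1, at 6657588 with 96 fragments (percentile 84.2), lay 3839 bp outside lab, in the short gap between CG1307 and twr. The nearest summit of replicate 2 was 22966 bp away, so this position did not recur either.

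The 29.2 kb between lab and pb hold 8 cuticle protein genes, Edg84A and the Ccp84A cluster, which the epidermis uses to build the larval and pupal cuticle. None of these 8 short, neighbouring genes had a summit in its span or within 1000 bp of an end in either replicate, as was the case for 67.6% of all coding genes. The 13.8 kb between pb and bcd were likewise without a summit. They hold zen2, CG34297 and zen, of which zen is a homeobox gene of the dorsal embryo. From 6668071 to 6760914 replicate 1 had no summit over 92.8 kb, and 13.4% of all its distances between neighbouring summits were at least as long. Replicate 2 had none from 6634622, which is outside the stretch, to 6722391 in pb, 87.8 kb, and 7.51% of its distances were at least as long.

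The highest summit of the complex in both replicates lay beyond bcd. bcd (Dmel_CG1034; 6755842 to 6759466) had no summit in its span. Past its higher-coordinate end, replicate 1 had a summit of 151 fragments at 6760914 and replicate 2 one of 170 fragments at 6760920. These positions were 6 bp apart, 1448 and 1454 bp from bcd, and ranked at percentiles 94.9 and 98.0 of their lists. They fall between bcd and Ama, which encodes the secreted immunoglobulin-family protein Amalgam, and within 599 and 593 bp of the long noncoding RNA gene CR45593. Beyond the 1000 bp rule, this position therefore counts for bcd within 2000 bp, where 20.7% of all coding genes were reached in both replicates. Inside Ama, 781 bp from its end, replicate 2 alone had a summit of 34 fragments at 6763374.

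Between Ama and Dfd, summits clustered in a single noncoding transcription unit. The long noncoding RNA gene CR42721 (6767050 to 6779728) held 3 summits in each replicate, of which 2 recurred. The higher pair, at 6776003 with 84 fragments and 6775994 with 80 fragments, lay 330 and 339 bp from the microRNA gene mir-993 (6776333 to 6776451). MicroRNA genes of the Hox complexes give rise to small RNAs that can repress Hox transcripts, and mir-993 is related to mir-10 by sequence. Of 260 microRNA genes on the 6 chromosome arms, 6.54% had a summit within 1000 bp in both replicates. The lower pair, at 6778630 with 32 fragments and 6778619 with 28, also lay in the noncoding gene CR43435. The remaining summits of CR42721 were 56 fragments at 6767350 in replicate 1 and 49 fragments at 6779413 in replicate 2. The latter was 783 bp from the lower pair, outside the distance that counts as recurring. For long noncoding RNA genes as a whole, 3.01% of 1959 had a summit in the span in both replicates and 6.02% had one within 1000 bp of an end. In the complex, 6 of 26 noncoding genes had one within 1000 bp in both replicates, and several of these neighbour each other and share summits. The 26 also include microRNA, tRNA and signal recognition particle RNA genes. The share over all noncoding genes was not computed, so this count has no background of its own and is not read as an excess.

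Dfd (Dmel_CG2189; 6791836 to 6802428), the Hox gene of the mandibular and maxillary segments, had 0 summits in its span or within 1000 bp of it in both replicates. Its nearest summits were 8891 bp away in replicate 1 and 8257 bp away in replicate 2, past its higher-coordinate end. Those lay in CR42651 (6808796 to 6816379), the long noncoding RNA gene that also spans mir-10, a microRNA gene conserved in Hox complexes of many animals. Replicate 1 had 79 fragments at 6811319, whereas replicate 2 had 120 fragments at 6811352 and 96 at 6810685. The summits at 6811319 and 6811352 recurred, 33 bp apart, and the additional summit of replicate 2 was 634 bp from replicate 1. mir-10 itself lay 1737 and 1103 bp from the nearest summits, so it was not reached within 1000 bp.

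Scr (Dmel_CG1030; 6823120 to 6849981), which specifies the labial segment and the prothorax, had summits near it in each replicate but at different places. In replicate 1 a summit of 59 fragments at 6822927 lay 193 bp outside the lower-coordinate end. It is 36 bp from a lysine tRNA gene (tRNA:Lys-TTT-2-4) and 129 bp from a signal recognition particle RNA gene (7SLRNA:CR32864). Further lysine tRNA genes and another such RNA gene are annotated close by. Reads from genes with similar copies can be placed at the wrong copy, which was not tested here. In replicate 2 a summit of 24 fragments at 6848595 lay 1386 bp inside the opposite end, and another of 22 fragments lay 2327 bp beyond that end at 6852308. Scr thus met the 1000 bp rule in replicate 1 only.

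Between Scr and ftz, a strong position recurred in a region without coding genes. Replicate 1 had a summit of 92 fragments at 6854895, and replicate 2 had a summit of 107 at 6854888, at percentiles 82.9 and 90.4. They lay 4914 and 4907 bp from Scr and 9429 and 9436 bp from ftz. ftz (Dmel_CG2047; 6864324 to 6866244) itself had no summit in its span or within 1000 bp in either replicate. The 30.0 kb from ftz to Antp held 0 summits in both lists.

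Antp (Dmel_CG1028; 6896253 to 6999228), the Hox gene of the thorax that represses head identity, carried the largest number of summits of the 7 members, 5 in replicate 1 and 15 in replicate 2. Its span of 103 kb makes up 29.4% of the stretch and held 31.2% of the summits of replicate 1 and 53.6% of those of replicate 2. The best supported position at Antp was just outside its higher-coordinate end. There, replicate 1 had 135 fragments at 6999366 and replicate 2 had 106 at 6999341, 138 and 113 bp from the end, at percentiles 92.9 and 90.2. A further recurring position lay beyond it, with 63 fragments at 7001996 and 57 at 7002006, near the noncoding gene CR45899. Whether that end of Antp is a transcript start was not assigned, since gene strand was not used here.

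Inside Antp, the tallest recurring position had its summits at 6912020 (119 fragments, replicate 1) and 6912026 (93 fragments, replicate 2). It lay 15.8 kb from the lower-coordinate end, in a part of the span that the annotated coding gene CG46458 (6896253 to 6958370) shares, so those summits cannot be given to Antp alone. The other recurring positions inside Antp ranked lower, at percentiles from 1.30 to 52.8. They had 25 and 32 fragments at 6949066 and 6949102, 14 and 30 at 6978461 and 6978446, and 45 and 30 at 6996568 and 6996576, in replicates 1 and 2 respectively. The first of these also lay in CG46458. In all, CG46458 spans 2 of the Antp summits in replicate 1 and 6 in replicate 2, with 2 recurring positions among them. None of those can be given to Antp alone.

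A near miss lay 5979 to 7283 bp inside the higher-coordinate end of Antp. Replicate 1 had a summit of 72 fragments at 6992592, and replicate 2 had one of 97 fragments at 6991945, 647 bp away, and one of 15 fragments at 6993249, 657 bp away on the opposite side. These did not count as recurring. The other 9 summits found only in replicate 2 in Antp had 62 fragments at 6900542, 16 at 6905042, 44 at 6926823, 33 at 6953325, 21 at 6958854, 14 at 6961907, 23 at 6980020, 47 at 6986720 and 24 at 6987342. Of all 11 that did not recur, 7 were below the median height of replicate 2, which is 37 fragments. Antp had 3.00 times as many summits in replicate 2 as in replicate 1, whereas the whole lists differed by 1.49 times and the stretch outside Antp by 1.18 times (13 against 11). Heights were not scaled to depth, and the part of depth in this difference was not tested.

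Position was reproduced more closely in the complex than the 500 bp rule asks. The 11 pairs lay 6 to 36 bp apart (median 10 bp), and the nearest summit that did not recur was 634 bp from its counterpart. No pair therefore sits near the threshold. Over all 1972 pairs of mutually nearest summits on the 6 arms the median was 22 bp, and 82.7% were within 50 bp. In replicate 1, 68.8% of the summits in the complex recurred (11 of 16, exact Clopper-Pearson 95% interval 41.3 to 89.0%), against 69.1% of the whole list. In replicate 2, 39.3% recurred (11 of 28, interval 21.5 to 59.4%), against 46.4%. Both shares of the whole list fall inside the intervals of the complex, which cover counting error of summits only. Whether PCR copies of a fragment add to the heights is unknown.

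Heights within the complex spread over most of the range of the lists. In replicate 1 they ran from 14 to 151 fragments with a median of 67.5, and in replicate 2 from 14 to 170 with a median of 33.5. The medians of the whole lists were 42 and 37 fragments. As percentiles, the medians were 71.8 in replicate 1 and 45.3 in replicate 2, so the replicates place the complex on opposite sides of the middle of their lists. Outside the Antp span the median percentiles were 78.5 and 70.3, and inside it they were 52.8 and 39.4.

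**Figure D2:**
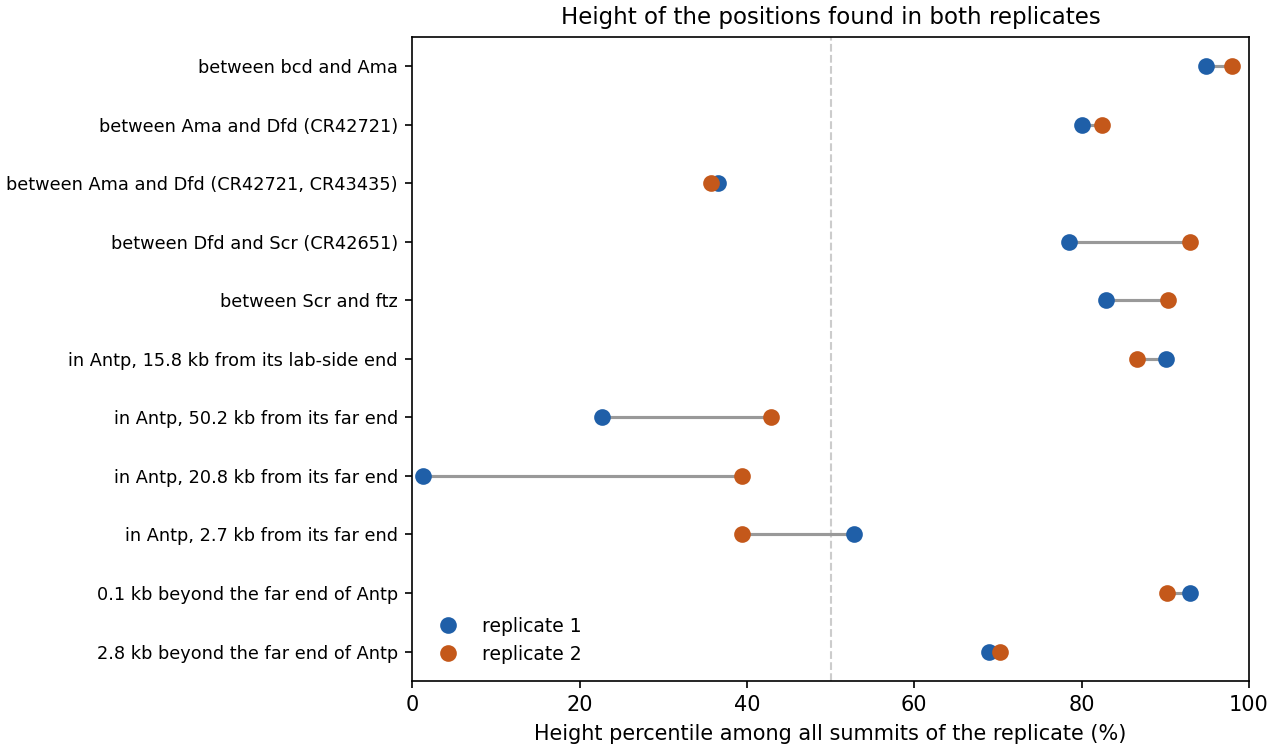
Height percentile of the 11 recurring positions of the complex among all summits of the same replicate, in order along the chromosome from the lab side, with replicates joined by a line and the 50th percentile dashed. 6 positions lie above percentile 75 in both replicates, and the widest gap is at the position 20.8 kb inside the far end of Antp (1.30 and 39.4).

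The pairs kept a similar order of height between replicates. Over the 11 pairs, Pearson's r of log2 height was 0.89 and Spearman's rho of height was 0.82, given as a description across positions that share their libraries. Over all pairs the values were 0.88 and 0.88. Replicate 2 was the higher in 5 of the 11 pairs and replicate 1 in 6, with a median ratio of 0.95, against 1.14 over all pairs. The 6 positions above percentile 75 in both lists were those beyond bcd, near mir-993, in CR42651, between Scr and ftz, at 6912020 in Antp and just outside Antp. The largest disagreement was at 6978461 in Antp, with a percentile of 1.30 in replicate 1 and 39.4 in replicate 2.

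The complex had more summits for its length than the rest of 3R in both replicates, and fewer genes than most windows of its size. There were 4.57 summits per 100 kb in replicate 1 (exact Poisson 95% interval 2.61 to 7.42) and 8.0 in replicate 2 (5.32 to 11.6). The rest of 3R had 2.04 (1.88 to 2.2) and 3.28 (3.08 to 3.48). Counted from the outer end of lab to that of Antp only, the density was 3.85 (2.05 to 6.58) and 7.70 (5.03 to 11.3), so in replicate 1 the interval then overlapped that of the rest of the arm. Against 90 other non-overlapping windows of 350 kb on 3R, the 16 summits of replicate 1 were exceeded in 1 window and equalled in 3, with a median of 7. The 28 summits of replicate 2 were exceeded in 1 window and equalled in 1, with a median of 11. The window with more in replicate 2, at 35 summits, is the one that contains Ubx of the Bithorax complex. In the complex 23 coding genes started, against a median of 41 in the other windows. The other windows include those -6650 to -2800 kb from the complex, where 0 to 7 coding genes started per window and few summits lay. They lower the density of the rest of 3R and favour the rank of the complex. The 11 recurring summits were exceeded in 4 windows and equalled in 5, with a median of 5. These ranks are a description of the arm.

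**Figure D3:**
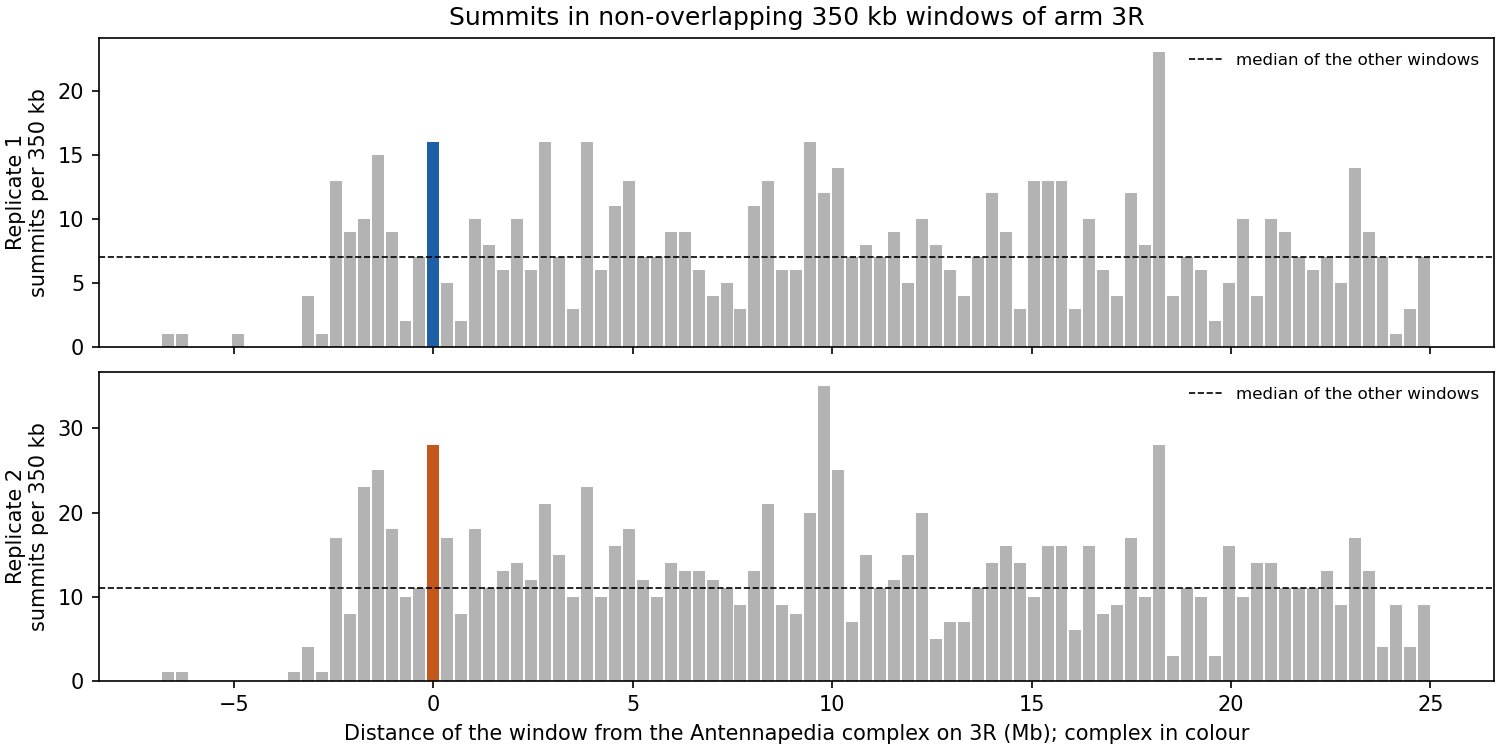
Number of summits (vertical axis) in each non-overlapping 350 kb window of 3R, by distance in Mb from the Antennapedia complex (horizontal axis), for replicate 1 (top) and replicate 2 (bottom). The coloured bar is the complex, with 16 and 28 summits, and the dashed line is the median of the other windows, 7 and 11.

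Within the complex the density was uneven. Antp had 4.86 summits per 100 kb in replicate 1 (interval 1.58 to 11.3) and 14.6 in replicate 2 (8.15 to 24.0). The spans of the other 6 members together, 94.4 kb, had 1.06 (0.0268 to 5.90) and 2.12 (0.256 to 7.65), from 1 and 2 summits. The 8 regions outside the member spans, 153 kb, had 6.55 (3.14 to 12.1) and 7.21 (3.60 to 12.9). These intervals treat summits as independent, although some in Antp lay close together, as at 6986720 and 6987342 in replicate 2. They cover counting error only, and no test between parts of a list was made.

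Length alone gives a gene more room for summits, so Antp was set beside the 306 other coding genes longer than 50 kb. The counts of Antp include the summits in the part shared with CG46458, which is itself among these genes. Among all 307 such genes, 56.4% had a summit in the span in both replicates. In replicate 2 the 15 summits of Antp were more than in any of the others, whose median was 2 and highest 12. In replicate 1 its 5 summits were exceeded by 5 genes and equalled by 3, with a median of 1. Among 51 other long genes with at least 3 summits in replicate 1, the median ratio of replicate 2 to replicate 1 was 1.25. The highest was 3.00, as in Antp, in Ubx (9 against 3) and bru3 (12 against 4). Per 100 kb, Antp was exceeded by 10 of the long genes in replicate 1 and by 8 when recurring pairs were counted. In replicate 2 it was exceeded by 1, MSAmiP, with 16.9, a gene annotated at 16831115 to 16896293 on 3R, inside the Bithorax complex.

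Counted as mutually nearest pairs, Antp had 4 recurring positions in its span, exceeded by 3 of the long genes. The genes with the same number were mtgo (118 kb), nmo (75.1 kb), CG15465 and rg (169 kb each) and kirre (394 kb). Of these nmo encodes the kinase Nemo and kirre an adhesion protein of muscle fusion. CG15465 and rg are annotated over the same span and therefore share their summits. These genes had 5, 4, 6, 6 and 7 summits in replicate 2, compared with 15 in Antp, and 4, 5, 4, 4 and 12 in replicate 1, compared with 5 in Antp.

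**Figure D4:**
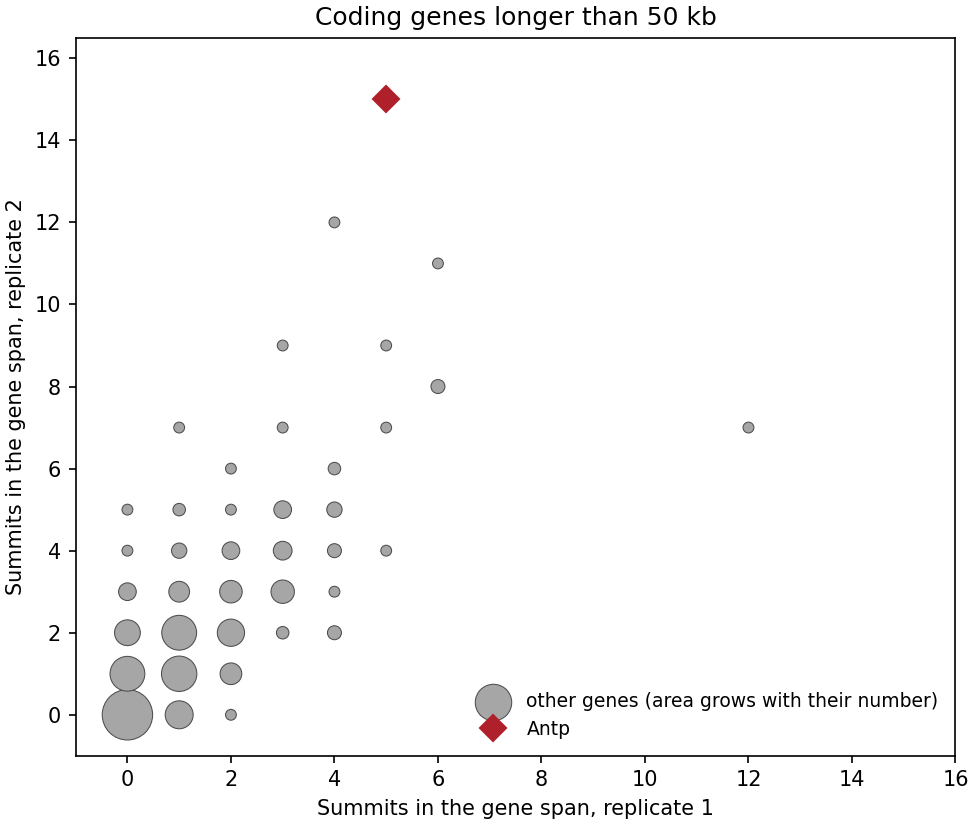
Summits inside the gene span in replicate 1 (horizontal axis) and replicate 2 (vertical axis) for the 307 coding genes longer than 50 kb. Grey circles are the other genes, with area growing with the number of genes at that point, and the red diamond is Antp, at 5 and 15.

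The Bithorax complex, the second Hox cluster of the fly, also had more summits in replicate 2 than in replicate 1. From Ubx to Abd-B (16656623 to 16972236) there were 17 summits in replicate 1 and 46 in replicate 2, a ratio of 2.71. All 3 of its Hox genes, each longer than 10000 bp, had summits in their spans in both replicates, as did 30.6% of all coding genes of at least that length. Ubx is longer than 50 kb, and among coding genes above that length the share was 56.4%. In the Antennapedia complex 1 of 7 members had summits in its span in both replicates, and bcd and ftz are shorter than 10000 bp. Ubx had 3 and 9, abd-A 3 and 6 and Abd-B 1 and 1. The heights there were lower, with medians of 25 and 24 fragments, at percentiles 22.7 and 27.4. Just outside the lower-coordinate end of Ubx the nearest summits had 28 and 25 fragments. Just outside the higher-coordinate end of Antp they had 135 and 106. Whether these are like ends of the genes was not assigned, since gene strand was not used here. No test of the difference between the complexes was made, because summits of 1 list are not replicates.

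Genes that act with or on the Hox genes were counted by the same 1000 bp rule, to be read against the 14.3% of all coding genes. Heights in parentheses, here and for the regulators below, are the highest within 1000 bp of an end in each replicate. They need not belong to the same position. Of 8 Hox cofactors and collaborators, 2 were reached in both replicates. These were tsh, a zinc finger factor of trunk identity (156 and 136 fragments), and ftz-f1, the nuclear receptor partner of Ftz (114 and 116). The cofactor gene hth had 6 and 8 summits in its span of 132 kb, of which 2 recurred in each replicate, but none within 1000 bp of an end. Among all coding genes longer than 50 kb, 56.4% had a summit in the span in both replicates. The cofactor gene exd was reached in neither replicate. Of 15 genes known as Hox targets, 3 were reached, which were dan (53 and 60), ct (49 and 55) and again tsh. Of 11 pair-rule and segment polarity genes, 2 were reached, opa (25 and 31) and hh (76 and 96), the latter encoding the Hedgehog ligand.

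The regulators of the complex were counted in the same way. Of 6 head gap genes and 7 gap and maternal regulators, 0 were reached in both replicates. Of 26 Polycomb and trithorax genes, 5 were reached (19.2%, near the 14.3% of all coding genes), which were Pc (41 and 39), phol (52 and 54), Sfmbt (45 and 61), mor (17 and 14) and vtd (55 and 58 fragments). The summits at phol, 9456984 and 9456320, were farther apart than the 500 bp that count as recurring. At Sfmbt, the summit of replicate 2 beside that of replicate 1 had 35 fragments, and the 61 belong to another summit. Pc encodes the chromodomain protein that names the group and phol a DNA-binding recruiter of it. Sfmbt encodes a protein with MBT repeats, a fold that binds methylated histone lysines. Each of these lists is small, and none was tested against the background.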

How the data were processed

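Targeted DamID libraries of genomic DNA were cut with DpnI, which needs methylated GATC, amplified by PCR and sequenced on a MiSeq, per the labels' protocols. The submitters' processing notes name MACS 1.4.2, Bowtie2 2.2.6, bcl2fastq 2.19.0.316 and build dm6. Cutoffs, duplicate filters and any control library used in calling are not given in the sources used here. Each of the files deposited by the authors lists summits of 1 bp, and its signal is the pileup in fragments at the summit, without scaling to depth. There is 1 list per sample. Read depth is unknown, and precision is limited by the number of summits. The replicate numbers follow the order of deposit and pair no samples.

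Gene spans were read from RefSeq (assembly Release 6 plus ISO1 MT, to which dm6 corresponds), with 13922 coding genes on 6 arms. Strand, exons, UTRs and genome sequence were not used here, so no density per GATC motif and no sequence is given. Positions are 1-based. Every summit of the stretch was used without a filter. Genes named are the 7 members, other genes of the complex with a summit in or near them, list genes reached in both replicates, and genes longer than 50 kb with as many recurring summits as Antp; MSAmiP, bru3, hth, exd, zen, zen2, CG34297 and mir-10 were named after their values were seen. The members and lists were chosen with earlier results of these data known, and 2 of 98 list terms were not matched. The Dam-alone samples were not analysed here, and no test between groups was made. Alternatives were other distances, other bounds, higher summits only, gene spans, nearest ends, mutual pairs and percentiles within 3R. The functions were tested on simulated data. Computation used SciPy 1.17.1, pandas 2.3.3, numpy 2.4.6 and matplotlib 3.10.9 under Python 3.11.15.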

Additional observations from a re-analysis of the deposited data

How the results depend on the processing

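With only summits above the median height of their list, replicate 2 kept 13 of its 28 summits in the complex, and recurring summits came to 7 in each replicate, against 11 with all summits. Within 2000 bp of an end, 3 members (Antp, bcd and Scr) were reached in both replicates, against 1 within 1000 bp, and 20.7% and 14.3% of all coding genes were. With each replicate left out in turn, the members reached in the remaining list numbered 1 to 2, Antp in replicate 2 alone and Antp with Scr in replicate 1 alone. The other alternatives moved counts by at most 1.5 times: recurrence within 200, 1000 or 2000 bp gave 11, 12 and 12 recurring summits in replicate 1 and 11, 15 and 16 in replicate 2. Bounds from lab to Antp, of which the count of recurring summits was added after seeing the data, left 13 and 26 summits, 9 of them recurring in each. The 500 bp distance, gene spans, nearest ends and higher summits each gave 1 member. Density per GATC motif and gene starts were not run, for want of a genome and of strand. No paired analysis was possible because the labels give no replicate numbers and only the Dam-Pr-set7 group was used. Unknown depth limits every missing summit.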

Other observations

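The longest stretch of the complex without a summit in either replicate ran from 6668071 in lab to 6722391 in pb, 54.3 kb that include the cuticle protein genes. Among 7090 distances between neighbouring summits of both lists together, 9.35% were at least as long. The next longest, 45.6 kb from 6854895 to 6900542, includes ftz. Of the 17 coding genes of the stretch that are not members, 13 had no summit in the span or within 1000 bp of an end in either replicate, near the 67.6% of all coding genes without a summit.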
